A study of Mus musculus with 12 samples.

Results

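The subunits of oxidative phosphorylation and the factors that share their names were followed in the intestinal mucosa of Slc39a8-IEC KO mice and controls. A gene belonged to the set if it was protein-coding in GENCODE M21 and its symbol began with Nduf, Uqcr, Atp5, Cox4 to Cox8, mt-Nd, mt-Co, mt-Cytb or mt-Atp, or was Sdha, Sdhb, Sdhc or Sdhd. This rule, which uses no measured value, found 106 genes among the 53715 genes of the count table, 93 of them nuclear and 13 mitochondrial. It also takes in 8 complex I assembly factors and the ATP synthase assembly factor, which are not subunits of the finished enzymes.

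RNA-seq was performed on ileum and colon mucosa of male C57BL/6J mice that were 8 weeks old, with 3 libraries for each of 4 groups. Control mice carried Slc39a8-fl/fl according to the labels, whereas the methods of the study describe controls as a mix of floxed, wild-type and Villin-Cre animals. Slc39a8-IEC KO mice carried Slc39a8-fl/fl with Villin-Cre, which deletes the gene in intestinal epithelial cells and leaves it in the other cells of the mucosa. Slc39a8 encodes ZIP8, a transporter that brings manganese and zinc into cells. The mice received no further treatment that the labels name.

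Oxidative phosphorylation joins the electron transport chain of the inner mitochondrial membrane to ATP synthesis. Complexes I and II pass electrons from NADH and succinate to ubiquinone, complex III passes them to cytochrome c, and complex IV passes them to oxygen. Complexes I, III and IV pump protons, and complex V, the ATP synthase, uses the proton gradient to make ATP. Some subunits of each proton-pumping complex and of complex V are encoded in mitochondrial DNA. The remaining ones, which include core subunits of complex I, are encoded in the nucleus, and complex II is nuclear throughout. In the gut, mature absorptive cells depend on this pathway, and colonocytes feed it by oxidising butyrate.

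Libraries held between 16749138 and 27903083 expected counts, and 89 nuclear and all 13 mitochondrial members passed the filter on low counts. Ileal enterocyte markers summed to at least 12010 CPM (counts scaled to a common library size) in every ileal library and at most 923.6 CPM in every colon library, and colonocyte markers to at least 15870 CPM in colon. In ileum the colonocyte markers stayed at or below 634.6 CPM except in ileum KO replicate 2, with 3094 CPM. General epithelium markers summed to 15580 to 20270 CPM in ileum and 7794 to 9024 CPM in colon. In control mice 5 of 5 were called lower in colon, and the part of this difference in the member values was not tested. The smooth muscle markers, 6 of 6 detected, summed to 34.2 CPM in ileum control replicate 3 and 20.2 CPM in ileum KO replicate 1, against 1814 to 2643 CPM in the other ileal libraries and 2536 to 3954 CPM in colon. Of the 19 members called for tissue in control mice and the 10 in KO mice below, 7 calls were lost without these 2 low-muscle libraries: mt-Co1, Cox7a1 and Ndufa7 in control mice, and mt-Co2, mt-Nd4l, Ndufa6 and Ndufaf7 in KO mice. Slc39a8 itself was lower in every KO library than in every control library of its tissue, with 6.73 ± 1.59 (SD) against 3.26 ± 0.95 CPM in ileum and 20.5 ± 0.39 against 8.93 ± 2.25 CPM in colon (n = 3 each). Its log2 difference over both tissues was -1.13 ± 0.17 (SE) with an adjusted p of 0.382 in edgeR, 1.245e-05 in DESeq2, 0.0729 in limma-voom and 0.0194 in edgeR without the low-muscle libraries. As whole mucosa was sequenced, fewer cells of a type and less RNA per cell cannot be told apart.

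The first question was how the 2 tissues differ. Mitochondrial transcripts made up a larger share of the colon libraries. In control mice the 13 mitochondrial genes took 7.80%, 4.45% and 4.76% of all counts in ileum and 12.6%, 11.2% and 10.02% in colon. In KO mice they took 4.02%, 5.78% and 4.49% in ileum and 9.97%, 10.1% and 7.87% in colon. Every colon library lay above every ileal library, though only narrowly between 7.80% in ileum and 7.87% in colon. The 93 nuclear members together took 1.39% to 1.61% of the counts in ileum and 1.74% to 2.21% in colon, again with no overlap between the tissues. These shares are scaled by the total count of each library alone, without TMM factors. With library size alone, the median log2 difference of all genes, colon over ileum, was 0.24 in control and 0.29 in KO mice. With TMM scaling the tissues overlapped in both sums: the mitochondrial genes came to 40170 to 94110 CPM in ileum and 66950 to 129200 CPM in colon, and the nuclear members to 13870 to 18150 CPM and 14840 to 22670 CPM.

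**Figure D1:**
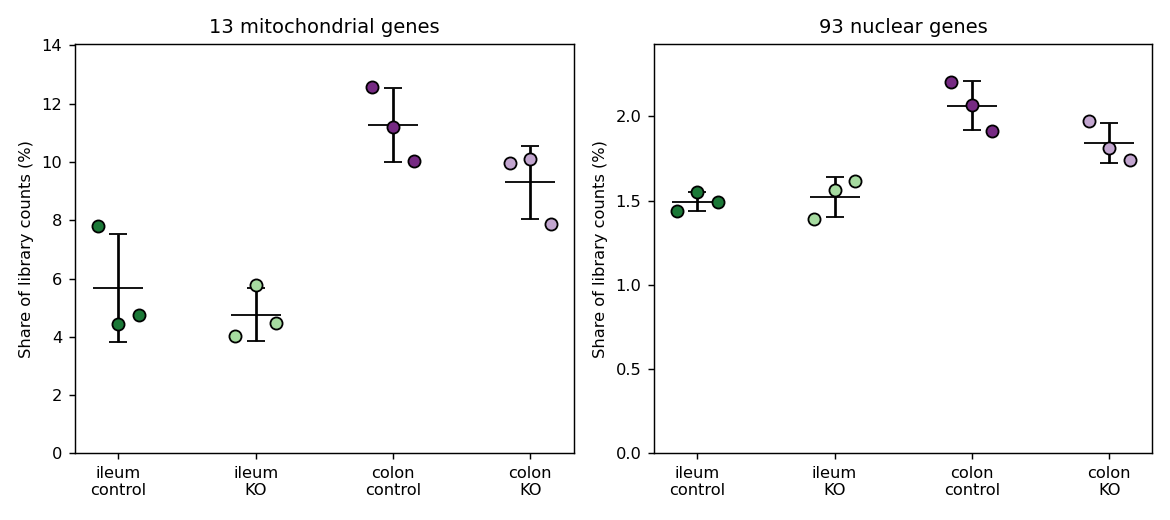
Share of all counts in a library (percent, vertical axis) taken by the 13 mitochondrial genes (left) and the 93 nuclear genes (right), with 1 point per library and the mean and SD of each group of 3. All 6 colon libraries lie above all 6 ileal libraries in both panels.

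mt-Co1, the catalytic core subunit of complex IV, accounted for much of the mitochondrial signal, with 40.2% to 54.5% of the mitochondrial counts of a library. It lies at chrM:5328-6872 (mm10). Its level was 41840, 20800 and 23160 CPM in control ileum and 62020, 49330 and 48530 CPM in control colon. In KO mice it was 18640, 27420 and 21230 CPM in ileum and 46730, 49200 and 36490 CPM in colon. The tissues did not overlap in either genotype. The log2 difference, colon over ileum, was 0.90 ± 0.31 (SE) in controls (adjusted p = 0.0467) and 0.98 ± 0.31 in KO mice (adjusted p = 0.0331), from edgeR's quasi-likelihood test with Benjamini-Hochberg adjustment over 16558 genes and a threshold of 0.1, which holds for every adjusted p below.

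In control mice, 3 of the 13 mitochondrial genes passed the test and were higher in colon, where 16.2% of all genes tested were called higher and 19.6% lower. Beside mt-Co1 these were the membrane subunits of ATP synthase, mt-Atp6 with 1.06 ± 0.39 and mt-Atp8 with 0.84 ± 0.25 on the log2 scale (adjusted p = 0.0659 and 0.0276). mt-Atp6 measured 3992, 3811 and 1875 CPM in control ileum and 8982, 6223 and 4962 CPM in control colon. mt-Atp8 measured 63.4, 29.4 and 31.7 CPM in control ileum and 82.2, 73.7 and 66.9 CPM in control colon. Both sets of 3 stood apart. The 2 genes share 43 bases, so their counts are not fully separate.

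All 13 mitochondrial genes had a positive estimate in control mice, with a median of 0.70 against 0.02 for all genes tested, and none was called lower. The median was 0.43 without ileum control replicate 3, 0.46 without colon control replicate 1 and 1.04 without ileum control replicate 1. The complex IV genes mt-Co2 and mt-Co3 had estimates of 0.70 and 0.80 without passing the test. mt-Cytb, the only mitochondrial gene of complex III, stood at 0.42. Among the 7 complex I genes, which form its proton-pumping arm, the values ran from 0.12 for mt-Nd6 and 0.14 for mt-Nd5 through 0.21 for mt-Nd2, 0.40 for mt-Nd4l, 0.56 for mt-Nd4 and 0.72 for mt-Nd1 to 0.82 for mt-Nd3, and no test was passed. The standard errors of the 13 estimates lay between 0.23 and 0.49, and differences between these genes were not tested. mt-Nd6 lies on the other strand and shares 14 bases with mt-Nd5, and the library kit does not mark strand.

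In KO mice, 4 mitochondrial genes were higher in colon and none lower, where 17.1% of all genes were called higher and 20% lower. They were mt-Co1, mt-Atp8 at 0.83 ± 0.25 (adjusted p = 0.0289), mt-Co2 at 0.80 ± 0.33 (adjusted p = 0.0895) and mt-Nd4l at 0.57 ± 0.24 (adjusted p = 0.0973). mt-Nd4l shares 7 bases with mt-Nd4, which was not called, and averaged 58.5 CPM against 5622 CPM. Its counts were fractional in all 12 libraries, so reads may have been divided between genes. The median over the 13 genes was 0.40, and 0.27 without ileum KO replicate 1. mt-Atp6 had an estimate of 0.11 ± 0.39 here, and its difference from the control value was not called (interaction adjusted p = 1). The comparisons in control and KO mice use separate libraries but 1 common estimate of spread.

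The mitochondrial calls depended on single libraries. Without the 2 low-muscle ileal libraries, 2 genes were called in control mice, mt-Atp8 and mt-Atp6, and 2 in KO mice, mt-Co1 and mt-Atp8. Of all genes, 19.9% in control and 21.5% in KO mice were then called higher. In the same setting 3 of the 13 control estimates became negative. Without colon control replicate 1, whose mitochondrial share was the highest of all, mt-Atp8 alone stayed called in controls, while without ileum control replicate 1 the number was 10. Of all genes, 12.8% and 16% were called higher in these 2 settings.

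Among the 89 nuclear members tested, 13 were higher and 3 lower in the colon of control mice. The share called higher, 14.6%, was near the 16.2% of all genes. The share called lower, 3.37%, was below the 19.6% of all genes. The median log2 difference was 0.31, and 67 of 89 estimates were positive. Without colon control replicate 1 the median was 0.19. In KO mice 4 were higher and 2 lower, with a median of -0.02 and 42 positive estimates. That median was at most 0.08, without colon KO replicate 3, and at least -0.12, without ileum KO replicate 1, so its sign depended on the library left out. Scaling mattered here: with library size in place of TMM factors, the median of all genes moved to 0.24 in controls. In that setting 50 nuclear members were called higher and 1 lower, where 25.1% of all genes were called higher and 12.7% lower. The members' median relative to all genes stayed at 0.30.

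**Figure D2:**
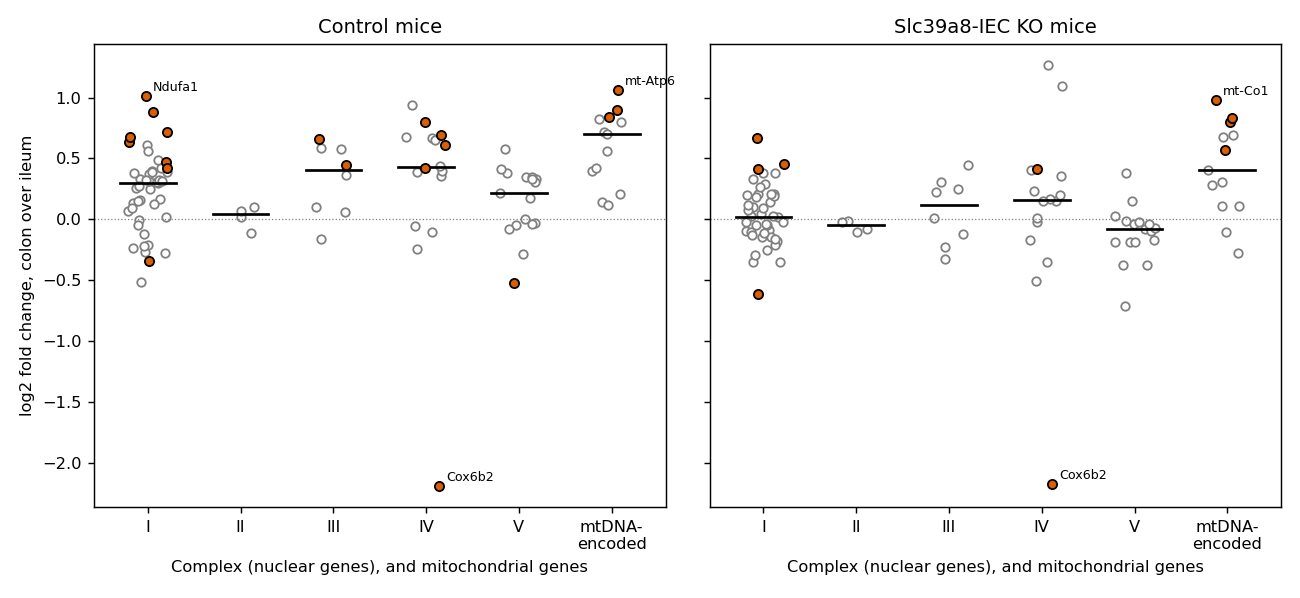
Log2 fold change, colon over ileum (vertical axis), of each tested member by complex, in control mice (left) and KO mice (right); filled points passed an adjusted p of 0.1, bars are medians and names mark called members with a log2 fold change beyond 0.95. Cox6b2 stands near -2.2 in both panels, and the complex II medians are 0.05 and -0.05.

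Complex I, with 44 of the 89 nuclear members tested, supplied 7 of the higher genes, where 16.2% of all genes were called higher. All but 1 of them were supernumerary subunits, small proteins around the catalytic core, of which 29 were tested. Ndufa1, which is needed early in the assembly of the membrane arm, measured 66.0, 88.3 and 52.9 CPM in control ileum and 177, 126 and 114 CPM in control colon. The groups did not overlap, and the log2 difference was 1.01 ± 0.28 (adjusted p = 0.019). In KO mice its estimate was 0.27 ± 0.28. Ndufa6, a subunit of the LYR family that binds the acyl carrier protein, measured 175, 153 and 128 CPM in control ileum and 302, 230 and 219 CPM in control colon. It was called in controls at 0.72 ± 0.17 (adjusted p = 0.00939) and in KO mice at 0.42 ± 0.17 (adjusted p = 0.0932), the latter not without the low-muscle libraries (0.34, adjusted p = 0.155).

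Ndufb4, Ndufc2 and Ndufb8, further supernumerary subunits of the membrane arm, were higher in control colon by 0.88 ± 0.23, 0.68 ± 0.22 and 0.63 ± 0.19 (adjusted p = 0.0133, 0.0413 and 0.0306) and were not called in KO mice. Ndufa7, named after its value was seen, was also higher in control colon, at 0.42 ± 0.15 (adjusted p = 0.0533), but not without the low-muscle libraries (0.32, adjusted p = 0.11). Ndufb4 has a pseudogene of near-identical sequence, Ndufb4c, listed at 48.3 CPM on average, so its reads may have been divided. The assembly factor Ndufaf4 was called in both genotypes. It measured 26.1, 26.6 and 21.1 CPM in ileum and 34.4, 38.1 and 29.5 CPM in colon of controls, and 16.6, 22 and 23.9 CPM in ileum and 28.1, 36.7 and 34.7 CPM in colon of KO mice. The differences were 0.47 ± 0.17 (adjusted p = 0.0637) and 0.67 ± 0.17 (adjusted p = 0.0138). Ndufaf7, a methyltransferase that acts in complex I assembly, was called in KO mice alone at 0.45 ± 0.18 (adjusted p = 0.083), with 0.42 ± 0.18 in controls (adjusted p = 0.11). The KO call was lost without the low-muscle libraries (0.31, adjusted p = 0.177).

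Genes lower in colon were few in complex I. Ndufa9, a supernumerary subunit beside the quinone channel, measured 143, 124 and 139.5 CPM in control ileum and 107, 103 and 110.2 CPM in control colon, a difference of -0.34 ± 0.14 (adjusted p = 0.0786), a call that was lost in 12 of the alternatives tried. Ndufa3 was lower in the colon of KO mice by -0.61 ± 0.23 (adjusted p = 0.0652), while its estimate in controls was -0.0025 ± 0.23. None of the 7 nuclear core subunits tested, which carry flavin and iron-sulfur clusters, passed the test in either genotype with all libraries. Without the 2 low-muscle libraries, the core subunit Ndufs8, named after its value was seen, was lower in control colon at -0.75 (adjusted p = 0.00466).

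No complex II gene passed the test in either genotype. Sdha, the flavoprotein that also serves the citric acid cycle, measured 289, 401 and 403.5 CPM in control ileum and 377, 399.6 and 394 CPM in control colon, and in KO mice 394, 401 and 440.4 CPM in ileum and 463, 409 and 354 CPM in colon. The tissues overlapped in both genotypes. For Sdha, the iron-sulfur subunit Sdhb and the membrane anchors Sdhc and Sdhd, the control estimates lay between -0.11 and 0.10, and in KO mice between -0.11 and -0.01. The 4 genes summed to 987 ± 80.4, 1024 ± 104, 996 ± 15.2 and 998 ± 72.0 CPM in control ileum, KO ileum, control colon and KO colon. Sdhd was called lower in control colon, at -0.31 (adjusted p = 0.087), only when the 2 low-muscle libraries were left out.

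In complex III, 7 of 8 estimates were positive in controls and 2 genes passed the test. Uqcr10, a small subunit, measured 196.5, 185 and 139 CPM in control ileum and 324, 258 and 241 CPM in control colon, with no overlap and a difference of 0.66 ± 0.20 (adjusted p = 0.0276). The Rieske iron-sulfur protein Uqcrfs1, named after its value was seen, differed by 0.45 ± 0.17 (adjusted p = 0.066). Neither was called in KO mice, at 0.45 ± 0.20 and 0.25 ± 0.17.

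Of all members tested, Cox6b2 of complex IV had the largest tissue difference in either genotype. Several of its nuclear subunits exist as isoforms that are known from particular tissues, and the 14 isoform genes covered a wide range of levels. The common forms were abundant: Cox8a, Cox6a1 and Cox6b1 had the highest levels per length of all nuclear members. On average over all 12 libraries they stood at 681, 610 and 472 CPM per kilobase of exon, followed by Uqcrb with 361.5 and Uqcr10 with 347. By the same measure mt-Co1 stood at 24020 CPM per kilobase. With the longest transcript as length in place of all exons, Cox8a, Cox6a1 and Uqcrb in control colon were at 893, 919 and 769 CPM per kilobase. As these values cover control colon alone, they differ from those above in libraries as well as in length.

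Cox6b2, the isoform of Cox6b known from testis, measured 8.98, 12.2 and 5.06 CPM in control ileum and 2.41, 2.06 and 1.27 CPM in control colon. In KO mice it measured 7.15, 7.42 and 10.4 CPM in ileum and 1.27, 1.92 and 2.32 CPM in colon. Every ileal library thus exceeded every colon library. The log2 differences were -2.19 ± 0.38 (adjusted p = 0.00122) in controls and -2.17 ± 0.38 (adjusted p = 0.00126) in KO mice. The difference was -2.49 and -2.26 without the low-muscle libraries, whose own values were 5.06 and 7.15 CPM. Its common partner Cox6b1 measured 399 ± 108 CPM in control ileum and 338 ± 54.4 CPM in control colon, with overlapping groups and an estimate of -0.24 ± 0.24. Cox6b2 is at chr7:4751792-4753094 on the minus strand of mm10.

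**Figure D3:**
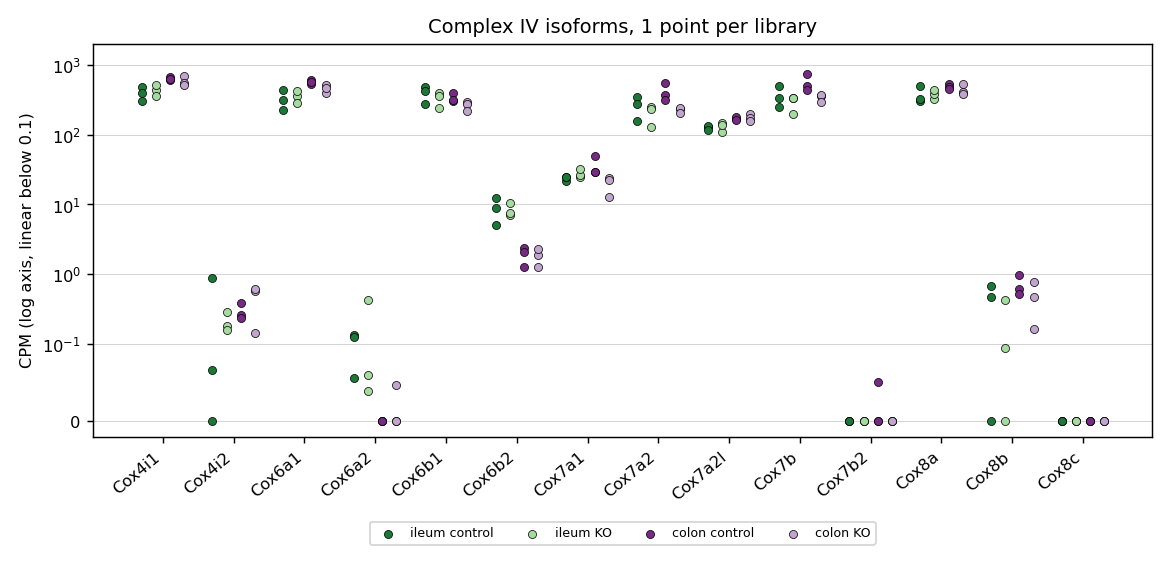
CPM (vertical log axis, linear below 0.1) of the complex IV isoform genes, with 1 point per library and colours for the 4 groups. Cox6b2 separates ileum (5.06 to 12.2 CPM) from colon (1.27 to 2.41 CPM), and Cox4i2, Cox6a2, Cox7b2, Cox8b and Cox8c stay below 1 CPM in every library.

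Cox6a1, the common form of Cox6a, was higher in colon. It measured 223, 440.0 and 317 CPM in control ileum and 607.5, 535 and 567 CPM in control colon, a difference of 0.80 ± 0.23 (adjusted p = 0.0232). Cox4i1, which helps complex IV respond to ATP, measured 299.6, 491 and 399.9 CPM in control ileum and 677.5, 617 and 629 CPM in control colon, a difference of 0.69 ± 0.20 (adjusted p = 0.0248). In KO mice these genes had estimates of 0.36 ± 0.23 and 0.41 ± 0.20 and were not called. Reads of Cox4i1 cannot be told apart from those of Emc8 over 154 bases where their exons overlap on opposite strands.

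Cox7a2l, a factor that joins complexes III and IV into supercomplexes, was called higher in colon in both genotypes. It measured 130, 132 and 118 CPM in control ileum, 170.4, 177 and 162 CPM in control colon, 110.0, 145.5 and 139.5 CPM in KO ileum, and 199.6, 172 and 156 CPM in KO colon. The differences were 0.42 ± 0.14 in both genotypes (adjusted p = 0.0383 and 0.0399). Cox7a2, the common subunit at that site, was not called, at 0.67 ± 0.32 and 0.15 ± 0.32.

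Cox7a1, the isoform of heart and skeletal muscle, was detected at 12.9 to 50.2 CPM in all 12 libraries. It was called higher in control colon at 0.61 ± 0.26 (adjusted p = 0.0978), a call that was lost in 16 of the alternatives tried, and had an estimate of -0.51 ± 0.26 in KO mice. The low-muscle libraries, at 25.1 and 24.9 CPM, lay within the 21.4 to 32.7 CPM of the other ileal libraries. Other restricted isoforms were near or at 0. Cox4i2, known from lung and low oxygen, stayed at or below 0.89 CPM, and Cox8b, a further muscle form, at or below 0.97 CPM with 0 in both low-muscle libraries. The filter removed Cox6a2, Cox7b2, Cox8c and Ndufa4l2, the last a paralogue of Ndufa4 known to respond to hypoxia. Cox8c had no count in any library, Cox7b2 had 0.051 CPM in a single colon control library, Cox6a2 reached 0.43 CPM and Ndufa4l2 0.42 CPM.

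Of the 17 nuclear members of ATP synthase, none was called higher in colon in either genotype. Atp5o, the stalk subunit that confers sensitivity to oligomycin, was lower in control colon. It measured 619, 399 and 371 CPM in ileum and 367, 303 and 297 CPM in colon, a difference of -0.52 ± 0.20 (adjusted p = 0.0721). The call was lost in 7 of the alternatives, and the groups stood apart by a narrow gap between 371 and 367 CPM. The 3 genes for the same c-ring protein, Atp5g1, Atp5g2 and Atp5g3, had estimates of -0.03, 0.30 and 0.004 in controls. The 5 subunits of the F1 head had a median of -0.03.

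The 2 low-muscle libraries are 1 control and 1 KO library of ileum, and they stood apart for the nuclear members too. Both lay below all 4 other ileal libraries for 47 of 89 nuclear members and 10 of 13 mitochondrial genes, against 27.2% of all genes tested, and above them for 3 and 0, against 23.2% of all genes. The median log2 ratio to the other ileal libraries was -0.35 for nuclear and -0.61 for mitochondrial members, and -0.04 for all genes. mt-Nd3 stood at 333 and 358 CPM against 668.5 to 875 CPM. Ndufa8, a complex I subunit, went the other way, at 51.4 and 61.5 CPM against 20.8 to 51.0 CPM. Pericyte markers were low with the muscle markers, at 5.31 and 7.52 CPM against at least 211 CPM. Other cell types differed in the same libraries. Plasma cell markers summed to 108 and 95.7 CPM against 442 to 819 CPM in the other ileal libraries, and enteric neuron and glia markers to 0.59 and 0.54 CPM against 6.53 to 10.2 CPM. Paneth cell markers stood at 14330 and 11480 CPM against 4747 to 8039 CPM, and the B cell marker Ms4a1 at 9.60 and 11.9 CPM against at most 0.76 CPM. The part of these cells in the member values was not tested.

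Without these libraries, 13 nuclear members (14.6%) were higher and 8 lower in control colon, where 19.9% of all genes were called higher and 22% lower. Of the 19 members called with all libraries 16 kept their call and direction. In KO mice 2 were higher and 9 lower, where 21.5% and 21.7% of all genes were called. The added lower calls in both genotypes included Cox6b1, at -0.46 (adjusted p = 0.0641) and -0.52 (adjusted p = 0.038), and Ndufb7, at -0.41 (adjusted p = 0.0792) and -0.44 (adjusted p = 0.0597), both named after their values were seen. Colon control replicate 1 mattered as well, since 7 nuclear members remained higher in controls without it, and 10 of 19 calls kept their direction. Of all genes, 12.8% were called higher in that setting.

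Promoters of the nuclear members were read for short sites, which genes called together did not all share. RefSeq windows of GRCm38.p6, from 250 bases before to 50 after each annotated start, matched 74 of the 93 nuclear members. They were searched on both strands for 3 short sites of factors known to act on respiratory genes, the core GCATGCGC of nuclear respiratory factor 1 (NRF1), the ETS site CCGGAAGT bound by GABPA, and the YY1 site AAGATGGCG. The NRF1 core was found in 12 members (16.2%) against 3.94% of 17492 protein-coding genes. The YY1 site was found in 8 (10.8%) against 2.14%, and the ETS site in 5 (6.76%) against 5.69%. Of the 12 genes called higher in control colon with a window, 0 held the ETS or the YY1 site. Among 58 genes that were not called, 5 held the ETS site and 7 the YY1 site. The NRF1 core was found in 9 of these 58 genes and in 3 of the 12 called higher. Stretches upstream of these 3 genes are shown, with Sdhb as a gene with the core that was not called. Cox6b2 is shown as the member with the most negative difference, colon over ileum, and none of the 3 sites was found in it. All stretches are written 5′ to 3′ along the gene, with the NRF1 core in capitals.

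Cox6a1 (chr5:115349085-115349146, minus strand): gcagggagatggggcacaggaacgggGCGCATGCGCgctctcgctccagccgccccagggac
Ndufa6 (chr15:82354341-82354400, minus strand): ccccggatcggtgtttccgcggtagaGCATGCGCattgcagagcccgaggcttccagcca
Ndufaf4 (chr4:24897944-24898005, plus strand): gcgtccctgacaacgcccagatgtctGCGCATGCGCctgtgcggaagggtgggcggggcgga
Sdhb (chr4:140961191-140961250, plus strand): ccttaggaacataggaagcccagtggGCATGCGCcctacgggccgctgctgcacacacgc
Cox6b2 (chr7:4753095-4753214, minus strand): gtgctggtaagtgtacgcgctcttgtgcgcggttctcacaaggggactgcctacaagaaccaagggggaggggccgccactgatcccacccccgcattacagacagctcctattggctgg

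In Cox6a1 and Ndufaf4 the core and its reverse complement overlap, which gives the longer run of capitals. These are matches of letters in a window and not binding sites.

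The second question was whether loss of Slc39a8 in the epithelium changed these genes. No member was called in ileum, in colon, over both tissues or in the difference between tissues, and DESeq2 and limma-voom called none either. In edgeR with all libraries no gene was called in these 4 comparisons (0% of 16558), with 641 at an unadjusted p under 0.05 over both tissues. Over both tissues edgeR called 4 genes higher and 1 lower without the low-muscle libraries, and 2 higher and 1 lower with the muscle score as a term. DESeq2 called 3 higher and 1 lower, and limma-voom 1 lower. The smallest adjusted p of a member was 0.998. Over both tissues, 15 of 89 nuclear members (16.9%) had an unadjusted p under 0.05 and were lower in KO mice, against 2.19% of all genes, and none was higher. Of the mitochondrial genes, mt-Atp8 alone did so, at -0.41 ± 0.17 (adjusted p = 0.998).

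The count over both tissues was 4 without colon control replicate 1, 5 without colon KO replicate 3, 8 without ileum control replicate 1 or ileum KO replicate 1, 24 without ileum KO replicate 2, 28 without ileum control replicate 3 and 25 without both low-muscle libraries. The mitochondrial count was 0 when ileum control replicate 1 was left out, 6 when ileum KO replicate 2 was, 8 when ileum control replicate 3 or both low-muscle libraries were, and 5 with DESeq2. Over all genes, an unadjusted p under 0.05 in either direction was found for 641 with all libraries and 480 without colon control replicate 1. The number was 457 without colon KO replicate 3, 405 without ileum control replicate 1 and 660 without ileum KO replicate 1. It was 840 without ileum KO replicate 2, 1737 without ileum control replicate 3, 1655 without both low-muscle libraries and 796 with DESeq2.

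Most estimates over both tissues were negative. Of the nuclear members, 66 of 89 had a negative estimate with a median of -0.13, and all 13 mitochondrial genes had one, with a median of -0.39. The mitochondrial median was -0.21 without ileum control replicate 1, and the nuclear median -0.08 without colon control replicate 1. With library size in place of TMM factors, 55 of 89 nuclear and all 13 mitochondrial estimates were negative, and the medians were -0.05 and -0.30. The smallest unadjusted p-values belonged to Ndufa4, a subunit of complex IV despite its name, at -0.53 ± 0.19, to Ndufb4 at -0.47 ± 0.17 and to the complex IV subunit Cox6c at -0.57 ± 0.21, each with an adjusted p of 0.998. Exact permutation over both tissues, with 400 arrangements, gave two-sided p-values of 0.05, 0.02 and 0.06 for these genes, before any adjustment. The arrangements exchanged genotypes in each tissue separately. They are valid only if ileal and colonic libraries came from separate mice, which the labels do not say.

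In ileum no nuclear or mitochondrial member reached an unadjusted p under 0.05. Ndufaf1, an assembly factor of complex I, was the only nuclear member whose KO libraries all lay below the controls, where 1.57% of all genes did so, and none had all KO libraries above them, where 2.13% did. The medians were -0.05 for nuclear and -0.34 for mitochondrial members, and both changed sign with the libraries used. The nuclear median was 0.08 without ileum KO replicate 1, 0.06 without ileum control replicate 2 and 0.01 without both low-muscle libraries. The mitochondrial median was 0.07, with 12 of 13 estimates positive, without ileum control replicate 1. The smallest unadjusted p belonged to Atp5o, at -0.35 ± 0.20, Ndufab1, the acyl carrier protein, at 0.21 ± 0.12, and Ndufa4 at -0.47 ± 0.28, each with an adjusted p of 1.

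In colon the estimates were lower. All KO libraries lay below all controls for 35 of 89 nuclear members and 8 of 13 mitochondrial genes, where 5.85% of all genes did so, and above them for 1, Atp5a1, where 6.98% of all genes did so. An unadjusted p under 0.05 with a lower level in KO mice was found for 24 nuclear members (27%) against 1.36% of all genes. The medians were -0.20 for nuclear and -0.41 for mitochondrial members and 0.005 for all genes.

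With 3 libraries against 3, an exact permutation test cannot go below 0.1, and none is given within a tissue. Ndufb6, a membrane arm subunit of complex I, had the smallest unadjusted p in colon. It measured 61.0, 49.1 and 46.1 CPM in controls and 36.4, 34.6 and 31.5 CPM in KO mice, a difference of -0.61 ± 0.17 (adjusted p = 1). Cox7a1 measured 50.2, 29.7 and 29.7 CPM in controls and 23.9, 22.3 and 12.9 CPM in KO mice, a difference of -0.89 ± 0.26 (adjusted p = 1). Ndufb4 measured 104, 70.8 and 57.1 CPM in controls and 52.4, 51.9 and 36.6 CPM in KO mice, a difference of -0.72 ± 0.23 (adjusted p = 1). In all 3 genes the groups stood apart and colon control replicate 1 was the highest library.

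These colon values moved with single libraries. The nuclear members summed to 22670 CPM in colon control replicate 1, against 17830 to 18610 CPM in the other colon controls and 14840 to 17660 CPM in the KO libraries. Without that control replicate, 2 nuclear members had an unadjusted p under 0.05, and the median was -0.10. The mitochondrial median was then -0.25 with 1 positive estimate, and no mitochondrial gene had such a p. Without colon KO replicate 3 the nuclear number was 3 and the median -0.12, and the mitochondrial number was 0. Without colon KO replicate 1 the nuclear median was -0.31. With the other libraries left out in turn, the nuclear number lay between 17 and 30. Over all genes, an unadjusted p under 0.05 in either direction was found for 385 in colon with all libraries. The number was 268 without colon control replicate 1 and 229 without colon KO replicate 3.

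They also moved with transcript length. Among nuclear members whose longest transcript is at most 900 bases, the median genotype difference in colon was -0.40 (34 genes), against -0.13 for 900 to 1600 bases (26 genes) and -0.05 above that (29 genes). Other protein-coding genes of the same classes had medians of -0.17 (410 genes), 0.01 (1409 genes) and 0.02 (12556 genes). In ileum the medians of the shortest class were -0.03 for members and -0.05 for other genes. In control mice the tissue difference of that class was 0.40 for members and -0.05 for other genes. The part of transcript length in the colon difference was not tested.

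**Figure D4:**
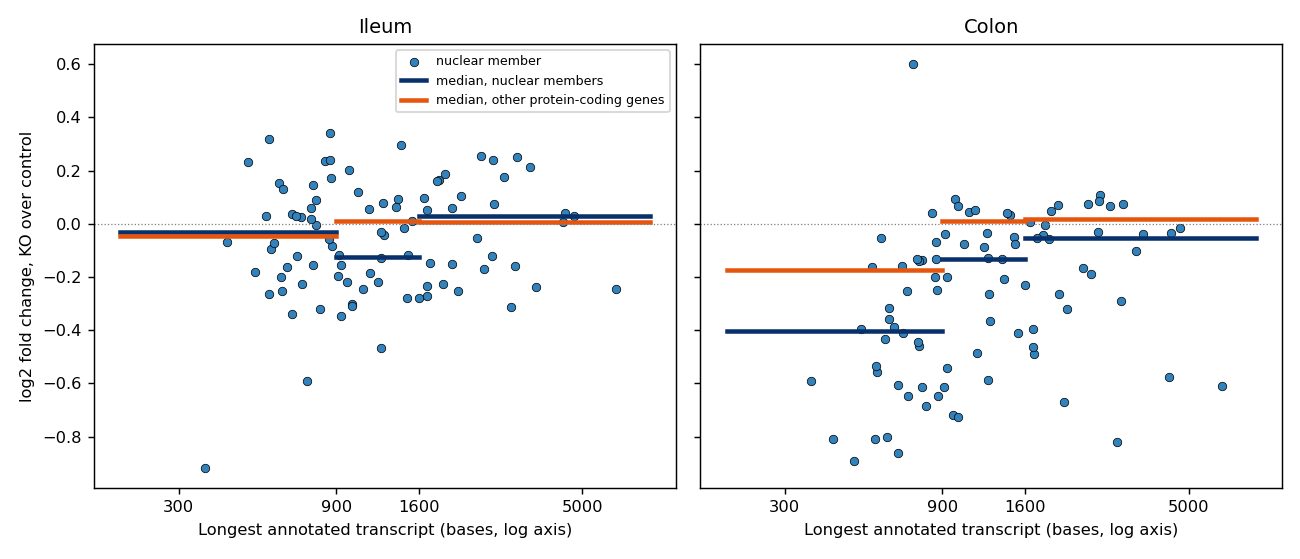
Log2 fold change, KO over control (vertical axis), of each tested nuclear member against its longest annotated transcript in bases (log axis), in ileum (left) and colon (right); bars are medians of 3 length classes for members and for other protein-coding genes. In colon the members of at most 900 bases lie around -0.40 and the other short genes around -0.17.

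By subunit class, with no test between classes and no member called, the colon medians were -0.37 for the 29 supernumerary subunits of complex I, -0.40 for complex III, -0.36 for the 11 common subunits of complex IV and -0.58 for the 8 stalk and membrane subunits of complex V. They were -0.003 for the 7 core subunits of complex I, 0.02 for complex II and 0.04 for the 5 F1 subunits of complex V. Without colon control replicate 1 the first 4 of these medians were -0.25, -0.26, -0.27 and -0.36, and the last 3 were 0.01, 0.03 and 0.05. mt-Nd3 had the largest mitochondrial estimate, at -1.17 ± 0.49 (adjusted p = 1), with 1679, 1023 and 782.5 CPM in controls and 650.4, 671 and 228 CPM in KO mice. mt-Atp6 followed at -0.94 ± 0.39 (adjusted p = 1).

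The genotype difference was compared between the tissues by the interaction term, and no member was called. Unadjusted p-values under 0.05 were found for Cox7a1 at -1.12 ± 0.36, Ndufb6 at -0.64 ± 0.24 and the ATP synthase membrane subunit Atp5k at -1.12 ± 0.49, each with an adjusted p of 1. Atp5k measured 37.8, 85.8 and 52.4 CPM in control ileum, 41.3, 81.8 and 96.1 CPM in KO ileum, 100.4, 70.6 and 63.3 CPM in control colon and 48.5, 50.7 and 34.6 CPM in KO colon. The ileal groups overlapped and the colon groups did not.

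Genes that work with the respiratory chain were read from fixed lists, and the genes named from them were chosen after their values were seen. In control mice 16.2% of all genes were called higher in colon and 19.6% lower. Of 41 assembly factors outside the naming rule, 9 (22%) were higher and 2 (4.88%) lower in control colon (median 0.22). Surf1, a complex IV assembly factor, was called in both genotypes at 0.83 ± 0.15 and 0.90 ± 0.15 (adjusted p = 0.0018 and 0.00101). Of 17 electron carriers and enzymes that feed electrons to ubiquinone, 5 (29.4%) were higher and 1 (5.88%) lower. Sqor, which oxidises sulfide, differed by 1.37 (adjusted p = 0.00024), and Gpd2, the mitochondrial glycerol phosphate dehydrogenase, by -1.50 (adjusted p = 8.2e-06).

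Of 26 genes of mitochondrial DNA maintenance and expression, 5 (19.2%) were higher and none lower (median 0.17). Of 13 citric acid cycle enzymes, 2 (15.4%) were higher and 6 (46.2%) lower (median -0.28), among them citrate synthase (Cs) at -1.02 (adjusted p = 0.0005) and the oxoglutarate dehydrogenase subunit Dlst at -0.96 (adjusted p = 4e-05). Of 11 regulators of mitochondrial biogenesis, 2 were higher and 2 lower (18.2% each). The coactivator Ppargc1b measured 4.32 CPM in control ileum and 15.8 CPM in control colon on average, a difference of 1.87 (adjusted p = 0.00013). The estimates of this list ran from -2.125 to that value, with a median of -0.16. Of 78 mitochondrial ribosomal proteins, 5 were higher and 5 lower (6.41% each) (median -0.02). With all libraries, edgeR called no gene of these lists for genotype in any of the 4 comparisons.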

How the data were processed

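RNA-seq libraries of ileum and colon mucosa were assigned to tissue, genotype and replicate by their labels, and all 12 columns were matched. The authors deposited expected counts, which are unnormalized and partly fractional estimates for each gene. STAR and mm10 are named in the submitters' processing notes, and the study's reporting summary adds UMI-tools for removing duplicates and featureCounts for counting. Which tool made the fractional estimates is not stated. GENCODE M21 gave a symbol to 53620 of 53715 genes by identifier without version, and 93 of 106 members had the same version in both. The 92 spike-in lines, which sum to 0, were left out. Written counts were fractional in some library for 20 nuclear and 7 mitochondrial members, and 42 members share exon bases with another gene, where reads may have been divided or counted for either gene.

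Counts were rounded and tested with edgeR 4.0.16 (R 4.3.3): filterByExpr over the 4 groups (16558 genes), TMM factors, glmQLFit and glmQLFTest, with Benjamini-Hochberg adjustment over all genes and a threshold of 0.1. Tissue and genotype effects came from a model of the 4 groups, and genotype over both tissues from a model with tissue as an additive term. CPM values use TMM-scaled library sizes. Permutation tests used log2 of CPM plus 0.5. The steps were tested on simulated data. Alternatives were DESeq2 1.42.0, limma-voom (limma 3.58.1), other scaling factors, filters and thresholds, unrounded counts, the replicate number as a block, the muscle score as a term, and libraries left out. Figures were drawn with matplotlib 3.10.9.

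The members and lists were chosen with earlier results of these data known. Members named were all mitochondrial genes, the isoform families, complex II, the 10 largest called changes in each direction for each tissue effect, the 3 smallest p-values of each genotype comparison, the 5 highest levels per kilobase, and those removed by the filter; others were named after their values were seen. The labels do not say that libraries came from separate mice across tissues, and p-values then measure the spread between these libraries. The depth limits precision for genes under 1 CPM. Amino acid sequences were not used here.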

Additional observations from a re-analysis of the deposited data

How the results depend on the processing

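No oxidative phosphorylation gene was called for genotype or for the interaction under any alternative run, and none of the alternatives listed was left out. The tissue counts moved, and where a count moved the cause was not tested. In control mice the nuclear genes called higher (13) were 26 with upper-quartile factors and 50 with library size only. Of all genes, 16.2% were called higher with the settings used above, 20.4% with upper-quartile factors and 25.1% with library size only. The nuclear genes called lower (3) were 1 with upper-quartile factors, with library size only, with a threshold of 0.05 or with only the libraries compared in the fit. They were 8 without the 2 low-muscle libraries and 9 with the muscle score as a term. Of all genes, 19.6% were called lower with the settings used above. In these 6 alternatives, in the order given, the share was 16.6%, 12.7%, 15.8%, 15.6%, 22% and 23.4%. The mitochondrial genes called higher (3) were 6 with DESeq2, limma-voom or upper-quartile factors and 10 with library size only. Of all genes, 10.3% were called higher with DESeq2 and 18.7% with limma-voom. In KO mice the nuclear genes called higher (4) were 7 with upper-quartile factors, 24 with library size only, and 2 with a threshold of 0.05, without the low-muscle libraries or with the muscle score. Of all genes, 17.1% were called higher with the settings used above. In these 5 alternatives, in the order given, the share was 22.2%, 28%, 12.9%, 21.5% and 21.9%. The nuclear genes called lower (2) were 1 with upper-quartile factors, library size only or a threshold of 0.05. They were 9 without the low-muscle libraries, 15 with the muscle score and 5 with only the libraries compared. Of all genes, 20% were called lower with the settings used above. In these 6 alternatives, in the order given, the share was 15.9%, 11.5%, 15.8%, 21.7%, 23.7% and 22.2%. The mitochondrial genes called higher (4) were 9 with library size only, and 2 with a threshold of 0.05, without the low-muscle libraries or with the muscle score, which also gave 1 called lower.

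With 1 library left out at a time, the control counts ranged from 7 to 27 nuclear higher, 1 to 4 nuclear lower and 1 to 10 mitochondrial higher, and the KO counts from 1 to 5 in each of these classes. Of all genes, 11.9% to 17.6% were then called higher and 15.1% to 20.3% lower in control mice. In KO mice the shares were 11.9% to 20.1% and 14.1% to 22.1%. The lowest control counts came without colon control replicate 1 and without ileum control replicate 3 (7 nuclear and 1 mitochondrial each), and the highest without ileum control replicate 2 (27 nuclear) and ileum control replicate 1 (10 mitochondrial). Among named members, Cox4i2, with under 1 CPM, had a difference of -0.10 in control mice that ranged from -0.75 without ileum control replicate 3 to 3.17, past the threshold, without ileum control replicate 2, which held 16 of the 17 counts of its group.

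With the replicate number as a block, the control counts were 11 nuclear higher, 2 nuclear lower and 4 mitochondrial higher, and the KO counts 3, 2 and 2. Of all genes, 14.6% were then called higher and 17.6% lower in controls, and 15.5% and 18% in KO mice. Samples of the same number correlated between -0.69 and 0.40 in their deviations from the group means, over all pairs of groups. Between ileum and colon the values were -0.05, 0.16 and -0.08 in controls and 0.19, 0.05 and 0.25 in KO mice. With 3 libraries a group, these values cannot show whether the numbers pair the samples. Genes under 1 CPM rest on few counts and are limited by depth.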

Other observations

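The mitochondrial ribosomal RNAs, which are no members, were read as a share of all counts in the same libraries. They took 0.443%, 0.331% and 0.192% in control ileum, 0.228%, 0.371% and 0.289% in KO ileum, 0.509%, 0.336% and 0.303% in control colon and 0.323%, 0.401% and 0.267% in KO colon. The tissues overlapped in both genotypes, whereas the shares of the 13 protein-coding mitochondrial genes did not. The lowest values, 0.192% and 0.228%, belonged to the 2 low-muscle libraries. These RNAs are caught poorly by oligo-dT priming. In edgeR, colon over ileum in control mice was -0.08 ± 0.32 for mt-Rnr1 and 0.05 ± 0.41 for mt-Rnr2 (adjusted p = 0.8745 and 0.9453). In KO mice the estimates were -0.14 ± 0.32 and -0.11 ± 0.41 (adjusted p = 0.7789 and 0.8629), and neither RNA was called for tissue.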
